A study of Mus musculus with 9 samples.

Results

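The genes of the secreted Wnt ligands, their Frizzled receptors, and the proteins that release, capture or relay these ligands were followed by RNA-seq in 3 lines of E14 mouse embryonic stem cells (ESCs). Members were taken by symbol, as every gene row named Wnt, Fzd, Dkk (1 to 4) or Sfrp (1 to 5) with its number, together with *Lrp5*, *Lrp6*, *Axin2*, *Tcf7*, *Tcf7l1*, *Tcf7l2*, *Frzb*, *Wif1*, *Lgr4*, *Lgr5*, *Porcn* and *Notum*, which gave 49 of the 25239 gene symbols. The rule itself uses symbols and no measured value, but the members were chosen with earlier results of these data known. The counts of members below are therefore no independent evidence. The control line was unedited E14 (genotype Rbbp4+/+). The Rbbp4Ins/Ins line carried a short in-frame insertion in the coding sequence of both alleles of *Rbbp4*, and the Rbbp4Ins/Del line carried that insertion on 1 allele and a short in-frame deletion on the other. *Rbbp4* encodes a histone-binding protein shared by several chromatin complexes, among them the Polycomb complex PRC2 and histone deacetylase complexes. Each mutant line was a single clone isolated after CRISPR-Cas9 cutting, so an effect of the mutation and a property of the clone cannot be told apart, and neither line lacked the gene. All cells had the strain label 12910la and grew in medium with serum and leukemia inhibitory factor. Each line gave 3 libraries of 15838064 to 21366868 counted reads. The labels do not say whether the 3 libraries of a line came from separate cultures, so p-values measure the spread between these libraries, which may be technical.

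Values below are normalized counts, that is, reads per gene scaled to a common library size, and a log2 fold change is given with its standard error (SE) and the Benjamini-Hochberg adjusted p of edgeR's quasi-likelihood test over all 14125 tested genes. A gene passed at an adjusted p of at most 0.01. *Rbbp4* RNA itself lay at 9932, 9965 and 10117 normalized counts in the control, 5485, 5551 and 5776 in Rbbp4Ins/Ins and 10129, 10344 and 10603 in Rbbp4Ins/Del. Its log2 fold change was -0.84 ± 0.0288 (SE, adjusted p = 1.8e-25) in Rbbp4Ins/Ins and 0.05 ± 0.0279 (SE, adjusted p = 0.11) in Rbbp4Ins/Del. Both mutant lines still held *Rbbp4* RNA, and counts per gene do not separate its alleles, so this level does not check the labels. The 12 listed ESC markers, among them *Pou5f1*, *Sox2* and *Nanog*, were all detected, with summed levels of 107748 to 112534 normalized counts in the control libraries, 136368 to 137983 in Rbbp4Ins/Ins and 135096 to 138683 in Rbbp4Ins/Del. Of these 12, 8 rose and 2 fell in Rbbp4Ins/Ins, and 7 rose and 1 fell in Rbbp4Ins/Del. Among all tested genes, 29.0% rose and 29.4% fell in Rbbp4Ins/Ins, and 30.6% rose and 31.9% fell in Rbbp4Ins/Del. In Rbbp4Ins/Ins and Rbbp4Ins/Del, the log2 fold changes were -0.12 and -0.03 for *Pou5f1*, 0.12 and 0.02 for *Sox2*, and 0.41 and 0.43 for *Nanog*.

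Wnt proteins are lipid-modified signals. Porcupine (*Porcn*) attaches the lipid in the endoplasmic reticulum, Wntless (*Wls*) carries the ligand to the surface, and the ligand binds a Frizzled protein together with Lrp5 or Lrp6. This stops the destruction complex, so that beta-catenin accumulates and turns on target genes such as *Axin2* with TCF and LEF factors, while other ligands, receptors and planar cell polarity proteins act without beta-catenin. In ESCs this pathway sustains self-renewal and also prepares cells for mesoderm formation, and secreted antagonists of the Dickkopf, Sfrp and Notum types hold it back.

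To show what the start regions of such genes look like, 5 promoter windows of RefSeq (build GRCm38.p6, from 250 bases before to 50 bases after the transcript start, in the direction of the gene) are printed here. Of the members, 32 had a window, with 37 windows in all. The windows were searched on both strands for 4 forms of the TCF/LEF recognition motif, CTTTG followed by AA, AT, TT or TA, of which no 2 can match the same bases on 1 strand. Of all 32851 windows, 16.9% held at least 1 of them, as did 6 of the 37 member windows (16.2%). *Wnt3* (chr11:103773925-103774224, plus strand) and *Fzd7* (chr1:59481897-59482196, plus strand) are shown as the tested members with a match among genes with a single window, and the target genes *Sp5* (chr2:70474673-70474972, plus strand) and *T* (chr17:8434173-8434472, plus strand) because their RNA fell the most among the targets below. Capitals mark the motif.
Wnt3: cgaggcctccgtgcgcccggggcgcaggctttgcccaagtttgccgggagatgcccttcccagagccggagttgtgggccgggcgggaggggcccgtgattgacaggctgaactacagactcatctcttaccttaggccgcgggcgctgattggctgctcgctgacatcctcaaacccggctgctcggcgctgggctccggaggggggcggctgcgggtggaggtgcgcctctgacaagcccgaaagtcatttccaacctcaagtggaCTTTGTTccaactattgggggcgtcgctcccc
Fzd7: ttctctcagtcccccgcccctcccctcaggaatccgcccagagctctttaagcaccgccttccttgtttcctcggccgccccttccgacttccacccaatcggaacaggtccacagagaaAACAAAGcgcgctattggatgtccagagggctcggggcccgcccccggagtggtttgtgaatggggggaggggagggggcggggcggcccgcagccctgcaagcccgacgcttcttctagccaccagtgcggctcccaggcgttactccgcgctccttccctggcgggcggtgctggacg
Sp5: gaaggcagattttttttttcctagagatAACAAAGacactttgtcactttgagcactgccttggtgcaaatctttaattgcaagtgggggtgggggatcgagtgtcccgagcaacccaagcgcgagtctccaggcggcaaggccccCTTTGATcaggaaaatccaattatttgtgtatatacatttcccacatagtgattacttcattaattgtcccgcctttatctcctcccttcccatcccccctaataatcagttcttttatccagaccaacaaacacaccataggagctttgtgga
T: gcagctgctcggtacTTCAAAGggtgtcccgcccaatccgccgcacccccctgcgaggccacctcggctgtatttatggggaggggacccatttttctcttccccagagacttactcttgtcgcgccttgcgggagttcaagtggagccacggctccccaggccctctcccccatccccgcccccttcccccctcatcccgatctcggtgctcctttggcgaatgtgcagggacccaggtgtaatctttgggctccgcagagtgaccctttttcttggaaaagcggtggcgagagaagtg
The match in *Wnt3* is CTTTGTT on the strand of the gene and begins at base 19 of the transcript. In *Fzd7* it is CTTTGTT on the opposite strand, beginning 130 bases before the RefSeq start. *Sp5* held CTTTGTT on the opposite strand from base 222 before the start and CTTTGAT on its own strand from base 104. *T* held CTTTGAA on the opposite strand from base 235 before the start. A match is only a run of letters, and whether a factor binds it was not measured in these libraries. The 1 window of *Axin2* and the 2 windows of *Tcf7*, whose RNA also fell in both mutants, held no match.

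The member windows were rich in CG pairs, with a median of 26 in 300 bases where all windows had a median of 7, and a median GC content of 66.7% against 52.7%. *Wnt4* (chr4:137277385-137277684, plus strand), whose RNA fell in both mutants, had 51 CG pairs and a GC content of 84.3%. It is shown as an example of such a start region, with its CG pairs in capitals.
Wnt4: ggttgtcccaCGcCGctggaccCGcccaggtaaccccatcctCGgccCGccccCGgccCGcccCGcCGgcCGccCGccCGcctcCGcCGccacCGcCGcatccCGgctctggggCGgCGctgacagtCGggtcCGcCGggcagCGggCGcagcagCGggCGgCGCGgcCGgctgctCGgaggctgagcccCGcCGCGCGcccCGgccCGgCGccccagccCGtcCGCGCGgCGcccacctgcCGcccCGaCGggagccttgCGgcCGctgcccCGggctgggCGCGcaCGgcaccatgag
The start of *Wnt4* is thus written mostly in C and G, and so are those of *Wnt9a* with 58 CG pairs and *Fzd9* with 53. *Wnt9a* RNA fell and *Fzd9* RNA rose in both mutants, so CG-rich starts occurred on either side.

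Of the 49 members, 33 had enough reads to be tested. In Rbbp4Ins/Ins, 20 of the 33 fell and 6 rose against the control, while 7 did not pass. Among all tested genes, 29.4% fell and 29.0% rose in this comparison. In Rbbp4Ins/Del, 21 fell, 7 rose and 5 did not pass, where 31.9% of all tested genes fell and 30.6% rose. The median log2 fold change of the tested members was -0.58 in Rbbp4Ins/Ins and -0.54 in Rbbp4Ins/Del, beside 0.00 and -0.01 over all tested genes. Both comparisons use the same control libraries. In bulk RNA, fewer cells expressing a gene and less RNA per cell cannot be told apart. The filter on low counts lets a gene through when at least 3 libraries hold about 10 reads or more of it. For 3 members (*Wnt3*, *Wnt5a* and *Wnt7a*) too few mutant libraries did, and for 3 others (*Wnt3a*, *Wnt6* and *Sfrp5*) too few control libraries did, so these 6 could be tested only because they were high on 1 side.

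**Figure D1:**
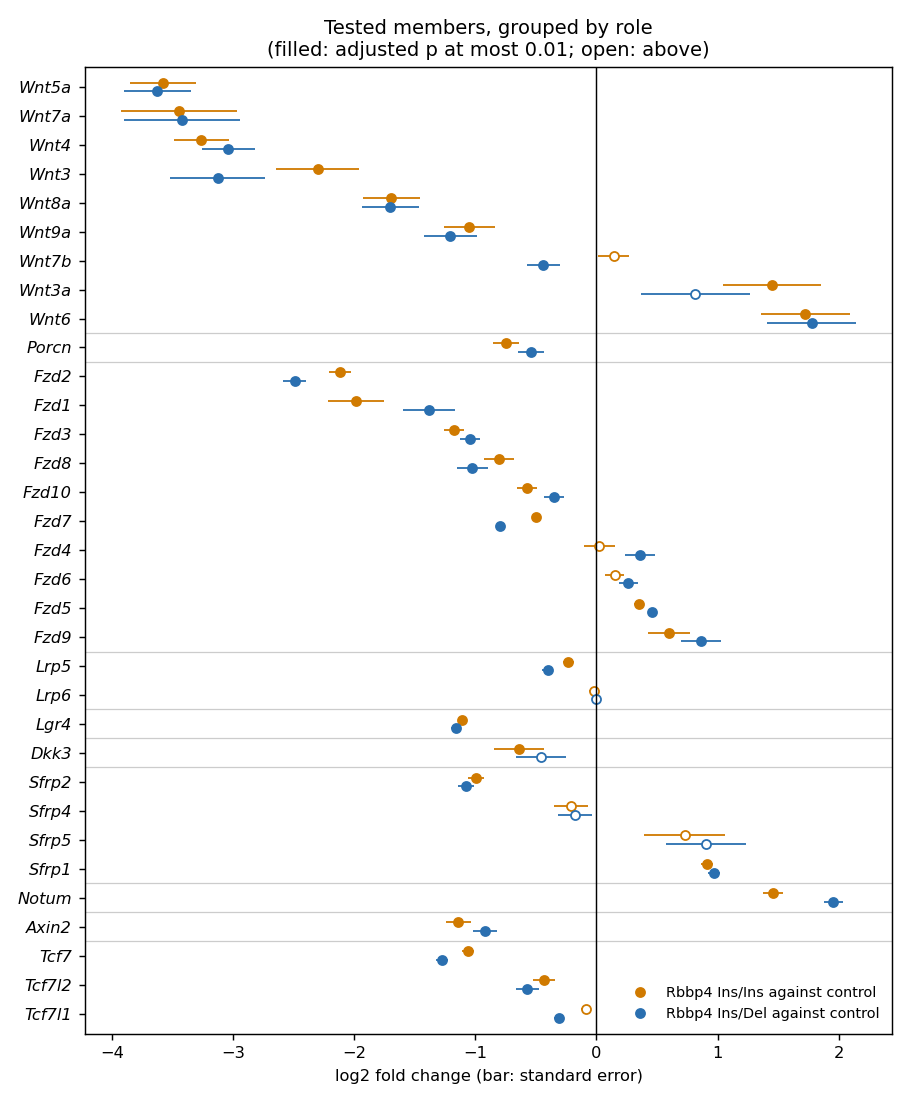
Log2 fold changes of the 33 tested members against the control, grouped by role from the ligands at the top to the TCF factors at the bottom, with Rbbp4Ins/Ins and Rbbp4Ins/Del as separate points and standard errors as bars. Filled points passed an adjusted p of 0.01. The ligands spread from -3.63 (*Wnt5a*) to 1.77 (*Wnt6*) in Rbbp4Ins/Del, and *Lrp6* sits at the zero line in both mutants.

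The other 16 members were not tested. None of them reached more than 17 reads in any library, and 5 (*Dkk2*, *Dkk4*, *Wnt1*, *Wnt16* and *Wnt2*) had at most 3 reads in each. They comprised 10 of the 19 ligand genes (*Wnt1*, *Wnt2*, *Wnt2b*, *Wnt5b*, *Wnt8b*, *Wnt9b*, *Wnt10a*, *Wnt10b*, *Wnt11* and *Wnt16*), the Dickkopf genes *Dkk1*, *Dkk2* and *Dkk4*, the Frizzled-related antagonist *Frzb*, the Wnt-binding antagonist *Wif1*, and *Lgr5*, the R-spondin receptor that marks stem cells of the gut. In the edgeR fit of all genes with at least 1 read, 0 of the 16 passed in either mutant, with an unadjusted p under 0.05 for 1 in Rbbp4Ins/Ins and 2 in Rbbp4Ins/Del. With DESeq2 0 passed, and 1 and 0 were under 0.05. The gene under 0.05 in both mutants with edgeR was *Wnt2b*, a ligand of lung specification, named here after its values were seen. It held 6, 9 and 7 reads in the control, 2, 3 and 1 in Rbbp4Ins/Ins and 1, 4 and 2 in Rbbp4Ins/Del, without overlap. Its log2 fold change was -1.79 ± 0.75 (SE, adjusted p = 0.038) in Rbbp4Ins/Ins and -1.57 ± 0.73 (SE, adjusted p = 0.062) in Rbbp4Ins/Del.

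Of the 9 tested ligand genes, 6 fell and 2 rose in Rbbp4Ins/Ins, and 7 fell and 1 rose in Rbbp4Ins/Del. Over all tested genes, 29.4% fell and 29.0% rose in Rbbp4Ins/Ins, and 31.9% fell and 30.6% rose in Rbbp4Ins/Del. *Wnt3*, *Wnt5a* and *Wnt7a* could be tested only through the control libraries, and *Wnt3a* and *Wnt6* only through the mutant ones. The filter thus favoured the direction of their calls. The ligands that fell in both mutants were *Wnt3*, *Wnt4*, *Wnt5a*, *Wnt7a*, *Wnt8a* and *Wnt9a*. Per length, that is, as normalized counts per kilobase of exonic sequence, the levels of all 19 ligand genes summed to 148 ± 2.59 (SD, n = 3) in the control, 76.5 ± 7.68 in Rbbp4Ins/Ins and 63.2 ± 5.17 in Rbbp4Ins/Del. The sum was thus lower in every mutant library than in every control library, at low levels throughout.

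*Wnt4*, a ligand of kidney and gonad development, had normalized counts of 118, 102 and 98.5 for the control, 9.41, 9.03 and 14.8 for Rbbp4Ins/Ins and 12.3, 15.3 and 10.4 for Rbbp4Ins/Del. Every mutant library lay far under the control libraries, and the mutants overlapped each other. The log2 fold change was -3.26 ± 0.23 (SE, adjusted p = 7.7e-16) in Rbbp4Ins/Ins and -3.04 ± 0.22 (SE, adjusted p = 2.2e-15) in Rbbp4Ins/Del. *Wnt5a*, the main ligand of signalling without beta-catenin, lies at chr14:28504750-28527448 of mm10 on the plus strand. It had normalized counts of 86.3, 63.9 and 92.0 for the control, 5.13, 7.90 and 7.40 for Rbbp4Ins/Ins and 7.16, 6.32 and 5.79 for Rbbp4Ins/Del. No mutant library came near the lowest control library, and the log2 fold change was -3.58 ± 0.27 (SE, adjusted p = 1.6e-14) in Rbbp4Ins/Ins and -3.63 ± 0.28 (SE, adjusted p = 1.2e-14) in Rbbp4Ins/Del.

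*Wnt7a* (chr6:91363981-91411363, minus strand), which patterns the dorsal limb and the female reproductive tract, had the lowest level in the mutants among the 9 tested ligands. Its levels were normalized counts of 20.5, 22.0 and 27.1 for the control, 1.71, 2.26 and 2.11 for Rbbp4Ins/Ins and 2.04, 0.902 and 3.47 for Rbbp4Ins/Del. Each mutant library held at most 3 reads. Over the summed reads of the line, *Wnt7a* was 11.5-fold lower than in the control, with a 95% interval from 5.02 to 32.4 in Rbbp4Ins/Ins, and 11.3-fold lower than in the control, with a 95% interval from 4.94 to 31.8 in Rbbp4Ins/Del. These intervals cover counting error only, and the fitted log2 fold changes of -3.44 in Rbbp4Ins/Ins and -3.42 in Rbbp4Ins/Del depend on the prior count. *Wnt3* (chr11:103774150-103817957, plus strand), a ligand needed for the primitive streak, had normalized counts of 32.5, 35.6 and 32.5 for the control, 3.42, 11.3 and 6.34 for Rbbp4Ins/Ins and 4.09, 4.51 and 2.31 for Rbbp4Ins/Del. The mutant libraries were all under the control ones, with a wide spread in Rbbp4Ins/Ins. Its log2 fold change was -2.30 ± 0.34 (SE, adjusted p = 2.7e-07) in Rbbp4Ins/Ins and -3.13 ± 0.39 (SE, adjusted p = 5.7e-09) in Rbbp4Ins/Del.

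*Wnt8a*, another ligand of the early posterior embryo, had normalized counts of 63.3, 68.1 and 57.4 for the control, 16.3, 28.2 and 14.8 for Rbbp4Ins/Ins and 15.3, 25.3 and 16.2 for Rbbp4Ins/Del. The control libraries were again the highest, and the log2 fold change was -1.69 ± 0.24 (SE, adjusted p = 6.1e-08) in Rbbp4Ins/Ins and -1.70 ± 0.24 (SE, adjusted p = 5.1e-08) in Rbbp4Ins/Del. *Wnt9a* (chr11:59306928-59333552, plus strand), a ligand of joint formation, fell the least of the ligands that fell in both mutants. Its libraries held normalized counts of 52.2, 62.9 and 67.1 for the control, 25.7, 31.6 and 30.7 for Rbbp4Ins/Ins and 18.4, 32.5 and 26.6 for Rbbp4Ins/Del, without overlap between control and mutants, and its log2 fold change was -1.05 ± 0.21 (SE, adjusted p = 3.8e-05) in Rbbp4Ins/Ins and -1.21 ± 0.22 (SE, adjusted p = 5.9e-06) in Rbbp4Ins/Del.

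Against this direction, *Wnt6* (chr1:74771892-74785322, plus strand), an epithelial ligand, rose in both mutants. It had normalized counts of 6.84, 5.24 and 9.74 for the control, 32.5, 18.1 and 20.1 for Rbbp4Ins/Ins and 29.6, 26.2 and 18.5 for Rbbp4Ins/Del. All 6 mutant libraries lay above the 3 control libraries, and the log2 fold change was 1.73 ± 0.37 (SE, adjusted p = 8.4e-05) in Rbbp4Ins/Ins and 1.77 ± 0.36 (SE, adjusted p = 4.7e-05) in Rbbp4Ins/Del. *Wnt3a* (chr11:59248033-59290752, minus strand), the ligand often added to ESC cultures to sustain them, had normalized counts of 6.84, 3.14 and 7.58 for the control, 16.3, 18.1 and 14.8 for Rbbp4Ins/Ins and 11.2, 12.6 and 6.94 for Rbbp4Ins/Del. The Rbbp4Ins/Ins libraries were all above the control ones, whereas the lowest Rbbp4Ins/Del library lay among the control libraries. The log2 fold change of *Wnt3a* was 1.45 ± 0.41 (SE, adjusted p = 0.0021) in Rbbp4Ins/Ins and 0.82 ± 0.45 (SE, adjusted p = 0.1) in Rbbp4Ins/Del, so only the first passed, and that call is lost with DESeq2 (adjusted p = 0.018) and without the second control library (adjusted p = 0.019, log2 fold change 1.19).

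*Wnt7b*, a ligand of lung and placenta development, had normalized counts of 132, 116 and 118 for the control, 109, 156 and 147 for Rbbp4Ins/Ins and 88.9, 83.0 and 101 for Rbbp4Ins/Del. In Rbbp4Ins/Ins the libraries straddled the control range, and in Rbbp4Ins/Del they lay under it. The log2 fold change was 0.14 ± 0.13 (SE, adjusted p = 0.32) in Rbbp4Ins/Ins and -0.44 ± 0.14 (SE, adjusted p = 0.005) in Rbbp4Ins/Del. The call in Rbbp4Ins/Del is lost with DESeq2 (adjusted p = 0.032) and without control replicate 1, Rbbp4Ins/Del replicate 1 or Rbbp4Ins/Del replicate 2 (adjusted p = 0.033, 0.017 and 0.035).

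**Figure D2:**
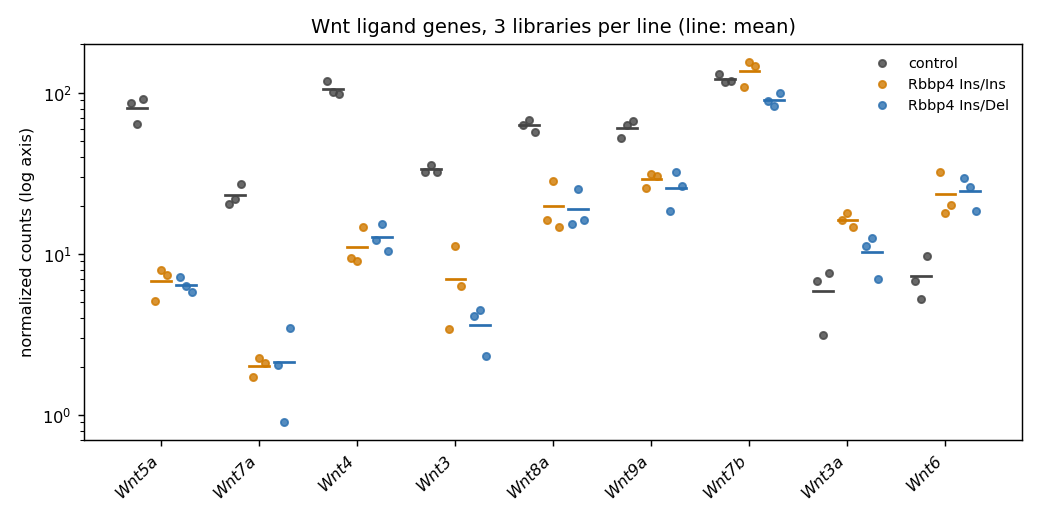
Normalized counts (log axis) of the 9 tested ligand genes in each of the 3 libraries of the control, Rbbp4Ins/Ins and Rbbp4Ins/Del, with a line at each mean. *Wnt5a*, *Wnt7a*, *Wnt4* and *Wnt3* lie well apart from the control in both mutants, the *Wnt7b* libraries of Rbbp4Ins/Ins straddle those of the control, and *Wnt3a* and *Wnt6* are higher in the mutants than in the control on average.

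The order of the ligands differed between the lines. In the control, *Wnt8a* led with a level of 36.0 ± 3.07 normalized counts per kilobase (SD, n = 3), above *Wnt4* at 25.3 ± 2.49 and *Wnt7b* at 24.9 ± 1.72, whose libraries overlapped. *Wnt9a* followed at 18.2 ± 2.32, and then *Wnt3*, *Wnt5a* and *Wnt7a* with neighbours that overlapped. In Rbbp4Ins/Ins, *Wnt7b* led at 28.0 ± 5.11, followed by *Wnt8a* at 11.3 ± 4.22, *Wnt6* at 10.7 ± 3.57 and *Wnt9a* at 8.80 ± 0.958, and these last 3 overlapped in turn. In Rbbp4Ins/Del, *Wnt7b* led at 18.6 ± 1.83, with *Wnt6* at 11.3 ± 2.60, *Wnt8a* at 10.8 ± 3.15 and *Wnt9a* at 7.76 ± 2.12 behind it, again with overlap. *Wnt4* went from 17.1% of the summed ligand level in the control to 3.50% in Rbbp4Ins/Ins and 4.75% in Rbbp4Ins/Del, while *Wnt6* went from 2.24% to 14.4% and 17.9%. These shares carry no test.

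Several ligand genes lie side by side in the genome. *Wnt3a* and *Wnt9a* are 16.2 kb apart on chromosome 11, and in Rbbp4Ins/Ins the first rose (log2 fold change 1.45) while the second fell (-1.05). *Wnt6* lies 6.19 kb from *Wnt10a* on chromosome 1, and *Wnt3* 24.3 kb from *Wnt9b* on chromosome 11. *Wnt10a* and *Wnt9b* stayed at or under 4 reads in every library.

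Release of the ligands was examined through 3 genes. *Porcn* (chrX:8193848-8206525, minus strand) had normalized counts of 206, 239 and 241 for the control, 153, 109 and 141 for Rbbp4Ins/Ins and 156, 153 and 159.7 for Rbbp4Ins/Del. The mutant libraries were all lower than the control ones, and the log2 fold change was -0.74 ± 0.11 (SE, adjusted p = 1.4e-07) in Rbbp4Ins/Ins and -0.54 ± 0.11 (SE, adjusted p = 2.2e-05) in Rbbp4Ins/Del. *Wls*, the carrier of lipid-modified Wnt proteins, is no member by symbol but moved much further, with normalized counts of 729, 688 and 697 for the control, 127, 104 and 131 for Rbbp4Ins/Ins and 96.1, 109 and 108 for Rbbp4Ins/Del. All 6 mutant libraries lay far under the control range, and the log2 fold change was -2.54 ± 0.0835 (SE, adjusted p = 4.1e-26) in Rbbp4Ins/Ins and -2.76 ± 0.0863 (SE, adjusted p = 6.2e-27) in Rbbp4Ins/Del. *Notum* (chr11:120653788-120661175, minus strand), a secreted enzyme that removes the lipid and so disarms the ligand, went the other way, with normalized counts of 188, 207 and 169 for the control, 569, 489.7 and 489 for Rbbp4Ins/Ins and 743, 685 and 768 for Rbbp4Ins/Del. Its 3 lines did not overlap, with Rbbp4Ins/Del the highest, and its log2 fold change was 1.46 ± 0.0827 (SE, adjusted p = 1.7e-18) in Rbbp4Ins/Ins and 1.96 ± 0.0788 (SE, adjusted p = 2.4e-23) in Rbbp4Ins/Del. On the opposite strand the transcripts *Notumos* and *Myadml2os* cover 29.4% and 8.72% of its exonic length, and since the strand setting of the counting is not given in the sources used here, their reads and those of *Notum* cannot be told apart.

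**Figure D3:**
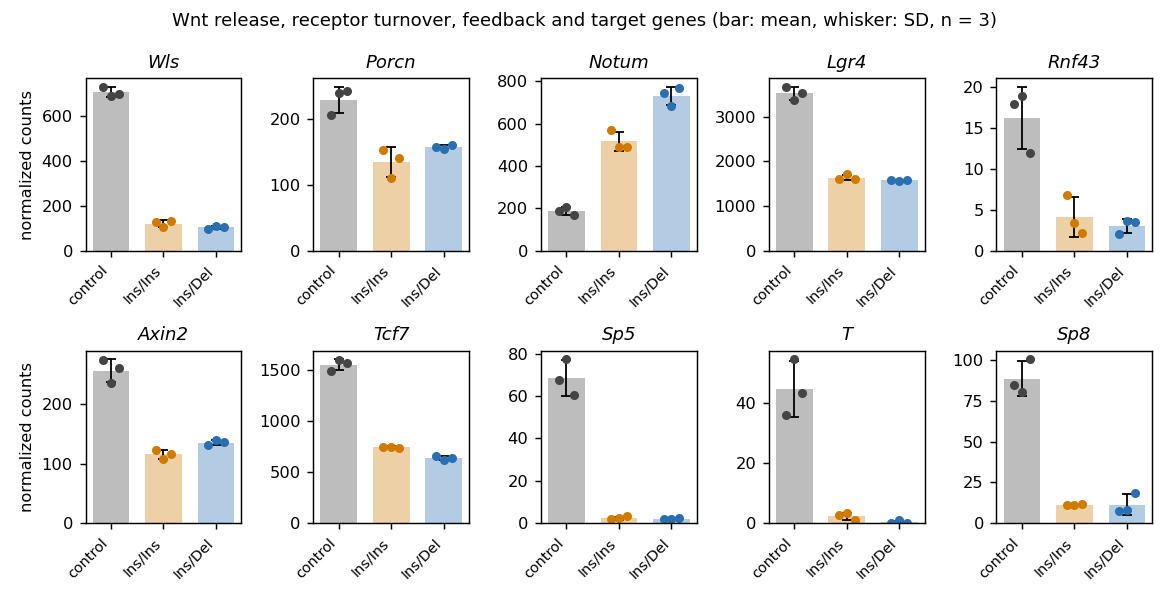
Normalized counts of 10 genes in the control, Rbbp4Ins/Ins and Rbbp4Ins/Del, as bars at the mean with the SD as whiskers and the 3 libraries as points, each panel on its own axis from 0. The upper row shows genes of ligand release and receptor turnover, of which only *Notum* is higher in the mutants, from a mean of 188 to 516 and 732, and the lower row shows *Axin2*, *Tcf7* and the targets *Sp5*, *T* and *Sp8*, all lower in both mutants.

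All 10 Frizzled genes were tested. In both mutants *Fzd1*, *Fzd2*, *Fzd3*, *Fzd7*, *Fzd8* and *Fzd10* fell. *Fzd5* and *Fzd9* rose in both, and *Fzd4* and *Fzd6* passed as higher in Rbbp4Ins/Del, where their log2 fold changes were 0.36 ± 0.12 (SE, adjusted p = 0.0096) and 0.26 ± 0.0759 (SE, adjusted p = 0.0023). In Rbbp4Ins/Ins these last genes had 0.02 ± 0.13 (SE, adjusted p = 0.88) and 0.15 ± 0.0767 (SE, adjusted p = 0.082) and did not pass. Whether *Fzd4* or *Fzd6* differed between the mutants was tested directly, with log2 differences of 0.34 ± 0.12 (SE, adjusted p = 0.051) and 0.11 ± 0.0748 (SE, adjusted p = 0.31), which did not pass. The *Fzd4* call in Rbbp4Ins/Del is lost with DESeq2 (adjusted p = 0.043), with scaling by total counts (adjusted p = 0.013) and without control replicate 2 or 3 or Rbbp4Ins/Del replicate 1 or 3 (adjusted p from 0.011 to 0.082). The *Fzd6* call is lost with DESeq2 (adjusted p = 0.011) and without control replicate 2 or Rbbp4Ins/Del replicate 1 (adjusted p = 0.015 and 0.013). *Fzd9* had normalized counts of 40.2, 47.1 and 45.5 for the control, 63.3, 70.0 and 67.7 for Rbbp4Ins/Ins and 72.6, 76.7 and 92.6 for Rbbp4Ins/Del. Its log2 fold change was 0.60 ± 0.17 (SE, adjusted p = 0.0026) in Rbbp4Ins/Ins and 0.86 ± 0.17 (SE, adjusted p = 2.1e-05) in Rbbp4Ins/Del, and the call in Rbbp4Ins/Ins is lost with DESeq2 (adjusted p = 0.018) and without the first control library (adjusted p = 0.02).

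*Fzd2* (chr11:102604396-102608058, plus strand), a receptor shared by several ligands including Wnt5a, showed the largest fall of the family, with normalized counts of 479.6, 499.7 and 453 for the control, 115, 103 and 109.9 for Rbbp4Ins/Ins and 82.8, 81.2 and 91.4 for Rbbp4Ins/Del. The lowest control library stood far above the highest mutant library. Its log2 fold change was -2.12 ± 0.0906 (SE, adjusted p = 2.1e-22) in Rbbp4Ins/Ins and -2.49 ± 0.10 (SE, adjusted p = 4.9e-24) in Rbbp4Ins/Del. *Fzd1* (chr5:4753839-4758035, minus strand) is a close relative of *Fzd2* and *Fzd7* and had normalized counts of 81.2, 56.6 and 87.7 for the control, 21.4, 13.5 and 21.1 for Rbbp4Ins/Ins and 24.5, 25.3 and 38.2 for Rbbp4Ins/Del. The control libraries varied, yet none reached down to the mutant ones, and the log2 fold change was -1.98 ± 0.23 (SE, adjusted p = 1.2e-09) in Rbbp4Ins/Ins and -1.38 ± 0.21 (SE, adjusted p = 4e-07) in Rbbp4Ins/Del.

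*Fzd3* (minus strand of chromosome 14), best known for axon guidance and cell polarity, had normalized counts of 451, 433 and 487 for the control, 214, 219 and 171 for Rbbp4Ins/Ins and 230, 215 and 219 for Rbbp4Ins/Del. The mutants overlapped each other under the control, with a log2 fold change of -1.18 ± 0.0845 (SE, adjusted p = 2.5e-15) in Rbbp4Ins/Ins and -1.05 ± 0.0834 (SE, adjusted p = 4.4e-14) in Rbbp4Ins/Del. The stretch of chromosome 14 around *Fzd3* (chr14:65192449-65262463) was lower as a whole. Of the 66 tested genes within 5 Mb of it, 60 fell in Rbbp4Ins/Ins (90.9%) and 59 in Rbbp4Ins/Del (89.4%), with median log2 fold changes of -0.99 and -1.0, close to those of *Fzd3* itself. The part of this region in the value of *Fzd3* was not tested. For *Wnt5a*, on the same chromosome, 29.8% and 35.1% of the neighbours within 5 Mb fell, near the share of all genes.

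*Fzd8* had normalized counts of 155, 146 and 160.2 for the control, 96.7, 74.5 and 89.9 for Rbbp4Ins/Ins and 73.6, 83.0 and 68.3 for Rbbp4Ins/Del, with every mutant library under the control range and a log2 fold change of -0.81 ± 0.13 (SE, adjusted p = 6.1e-07) in Rbbp4Ins/Ins and -1.02 ± 0.13 (SE, adjusted p = 7.5e-09) in Rbbp4Ins/Del. *Fzd7* (chr1:59482424-59486955, plus strand), the main Frizzled of mouse ESCs, had the highest level per length of the family in each line. It had normalized counts of 3492, 3439 and 3479.7 for the control, 2505, 2399 and 2454 for Rbbp4Ins/Ins and 2039, 1961 and 1985 for Rbbp4Ins/Del. The 3 lines formed 3 separate levels, and the log2 fold change was -0.50 ± 0.0330 (SE, adjusted p = 2e-16) in Rbbp4Ins/Ins and -0.80 ± 0.0338 (SE, adjusted p = 1.1e-22) in Rbbp4Ins/Del. *Fzd5* (chr1:64730558-64737751, minus strand), a receptor of the early embryo and yolk sac, had normalized counts of 2107, 1974 and 2070 for the control, 2605, 2610.1 and 2614 for Rbbp4Ins/Ins and 2911, 2848 and 2707 for Rbbp4Ins/Del. Here the control libraries were the lowest, with a log2 fold change of 0.35 ± 0.0362 (SE, adjusted p = 7.4e-11) in Rbbp4Ins/Ins and 0.46 ± 0.0359 (SE, adjusted p = 2.3e-14) in Rbbp4Ins/Del. The unclassified transcript *Gm38058* covers 17.8% of the exonic length of *Fzd5* on the opposite strand.

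Per length, *Fzd7* stood at 766 ± 6.08 normalized counts per kilobase (SD, n = 3) in the control, 541 ± 11.7 in Rbbp4Ins/Ins and 440.2 ± 8.88 in Rbbp4Ins/Del. *Fzd5* was next in each line, at 296 ± 9.94, 377 ± 0.706 and 408 ± 15.1. The distance between these leading receptors thus narrowed from the control to Rbbp4Ins/Del, where their libraries still did not overlap. *Fzd7* made up 52.2% of the summed Frizzled level in the control, 46.5% in Rbbp4Ins/Ins and 39.5% in Rbbp4Ins/Del, and *Fzd5* made up 20.2%, 32.4% and 36.6%. *Fzd2* followed in the control at 130.3 ± 6.45 and fell to 29.9 ± 1.75 in Rbbp4Ins/Ins, where its libraries overlapped those of *Fzd9*, and to 23.2 ± 1.5 in Rbbp4Ins/Del. *Fzd1* was the lowest in both mutants, at 4.45 ± 1.06 and 6.99 ± 1.83. The summed level of all 10 genes was 1466 ± 24.3 in the control, 1164 ± 13.3 in Rbbp4Ins/Ins and 1116 ± 18.8 in Rbbp4Ins/Del.

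**Figure D4:**
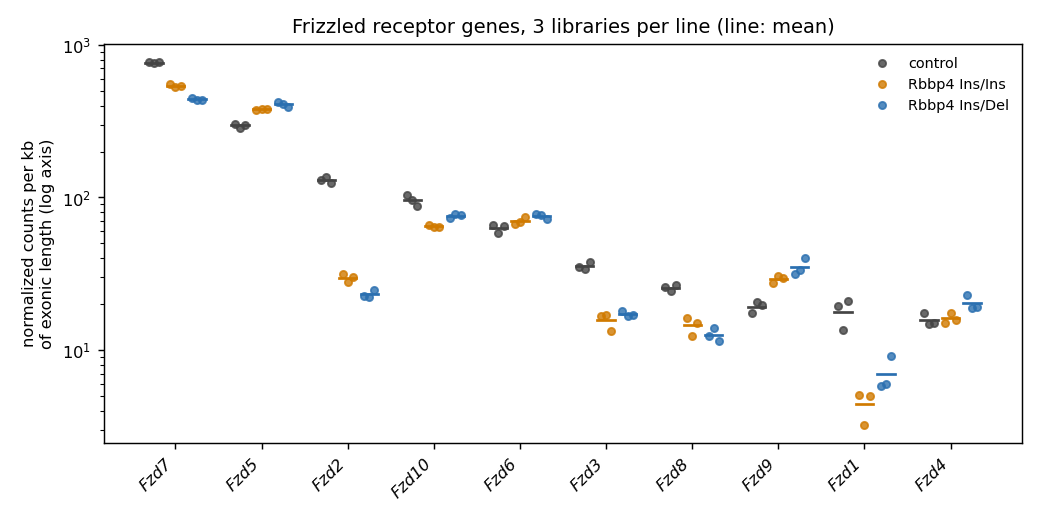
Normalized counts per kilobase of exonic length (log axis) of the 10 Frizzled genes, ordered by their control mean, in each of the 3 libraries of the control, Rbbp4Ins/Ins and Rbbp4Ins/Del, with a line at each mean. *Fzd7* and *Fzd5* lead in every line and approach each other in the mutants, and *Fzd2* drops from 130.3 to 29.9 and 23.2.

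The co-receptors changed little beside this. *Lrp6* (chr6:134446476-134566965, minus strand), the co-receptor most needed for beta-catenin signalling in mouse embryos, had normalized counts of 2469.9, 2324 and 2513 for the control, 2327, 2502 and 2370.1 for Rbbp4Ins/Ins and 2445, 2438 and 2424 for Rbbp4Ins/Del. All 3 lines overlapped, and the mean differed from the control by -1.49% in Rbbp4Ins/Ins (adjusted p = 0.58) and 0.00147% in Rbbp4Ins/Del (adjusted p = 1). *Lrp5* had normalized counts of 1571, 1561 and 1474 for the control, 1334, 1286 and 1303 for Rbbp4Ins/Ins and 1241, 1140.5 and 1107 for Rbbp4Ins/Del. It fell slightly in both, with a log2 fold change of -0.23 ± 0.0441 (SE, adjusted p = 1.8e-05) in Rbbp4Ins/Ins and -0.40 ± 0.0448 (SE, adjusted p = 3.6e-10) in Rbbp4Ins/Del.

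*Lgr4* (chr2:109917647-110014257, plus strand), the receptor through which R-spondins keep Frizzled proteins at the surface, had normalized counts of 3674, 3376 and 3529 for the control, 1599, 1713 and 1606 for Rbbp4Ins/Ins and 1584, 1571 and 1578 for Rbbp4Ins/Del. The mutant libraries formed a tight group under the control ones, with a log2 fold change of -1.11 ± 0.0374 (SE, adjusted p = 9.1e-26) in Rbbp4Ins/Ins and -1.16 ± 0.0376 (SE, adjusted p = 1.9e-26) in Rbbp4Ins/Del. It was among the most deeply counted members, so its error was small. The ubiquitin ligase gene *Rnf43*, whose product takes Frizzled proteins from the surface, also fell, with normalized counts of 18.0, 18.9 and 11.9 for the control, 6.84, 3.39 and 2.11 for Rbbp4Ins/Ins and 2.04, 3.61 and 3.47 for Rbbp4Ins/Del. The log2 fold change of *Rnf43* was -1.89 ± 0.45 (SE, adjusted p = 3.4e-04) in Rbbp4Ins/Ins and -2.38 ± 0.49 (SE, adjusted p = 4.5e-05) in Rbbp4Ins/Del. Without the first Rbbp4Ins/Ins library the value in Rbbp4Ins/Ins becomes -2.52. Its sister gene *Znrf3* rose mildly, by 0.22 in Rbbp4Ins/Ins and 0.30 in Rbbp4Ins/Del on the log2 scale. *Rspo4*, 1 of the R-spondin ligands, rose from a low level, with normalized counts of 9.40, 10.5 and 14.1 for the control, 37.6, 26.0 and 29.6 for Rbbp4Ins/Ins and 28.6, 30.7 and 27.8 for Rbbp4Ins/Del. This is a log2 fold change of 1.49 ± 0.29 (SE, adjusted p = 3.3e-05) in Rbbp4Ins/Ins and 1.37 ± 0.30 (SE, adjusted p = 1.1e-04) in Rbbp4Ins/Del.

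The secreted antagonists moved in both directions. *Sfrp2* (chr3:83766321-83774316, plus strand), a Frizzled-related protein that binds Wnts, had normalized counts of 791, 722 and 696 for the control, 392, 344 and 372 for Rbbp4Ins/Ins and 359.8, 356 and 331 for Rbbp4Ins/Del. All mutant libraries were lower, and the log2 fold change was -0.99 ± 0.0658 (SE, adjusted p = 2.2e-16) in Rbbp4Ins/Ins and -1.08 ± 0.0666 (SE, adjusted p = 2.1e-17) in Rbbp4Ins/Del. The antisense transcript *Gm26771* covers 16.1% of its exonic length on the opposite strand. *Sfrp1* (chr8:23411502-23449632, plus strand), which belongs to the same family, had normalized counts of 987, 911 and 852 for the control, 1718, 1799 and 1679.8 for Rbbp4Ins/Ins and 1717, 1877 and 1809.6 for Rbbp4Ins/Del. It rose in both mutants, with a log2 fold change of 0.91 ± 0.0477 (SE, adjusted p = 1.5e-19) in Rbbp4Ins/Ins and 0.97 ± 0.0476 (SE, adjusted p = 1.4e-20) in Rbbp4Ins/Del, so that these 2 antagonists of the same type moved apart.

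*Sfrp4* had log2 fold changes of -0.21 ± 0.14 (SE, adjusted p = 0.19) in Rbbp4Ins/Ins and -0.18 ± 0.14 (SE, adjusted p = 0.25) in Rbbp4Ins/Del and *Sfrp5* of 0.73 ± 0.33 (SE, adjusted p = 0.053) in Rbbp4Ins/Ins and 0.90 ± 0.33 (SE, adjusted p = 0.014) in Rbbp4Ins/Del, none of which passed. *Dkk3*, the divergent Dickkopf gene, was the only 1 of its 4 to be tested, with normalized counts of 47.0, 55.5 and 44.4 for the control, 27.4, 33.9 and 33.8 for Rbbp4Ins/Ins and 40.9, 34.3 and 31.2 for Rbbp4Ins/Del. It passed as lower in Rbbp4Ins/Ins and not in Rbbp4Ins/Del, with log2 fold changes of -0.64 ± 0.21 (SE, adjusted p = 0.0069) in Rbbp4Ins/Ins and -0.46 ± 0.20 (SE, adjusted p = 0.043) in Rbbp4Ins/Del, and the difference between the mutants did not pass (0.18 ± 0.22 (SE, adjusted p = 0.64)). The call in Rbbp4Ins/Ins is lost with DESeq2 and without any Rbbp4Ins/Ins library or control replicate 1 or 2 (adjusted p from 0.011 to 0.055).

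*Axin2* (chr11:108920349-108950783, plus strand), a scaffold of the destruction complex and the usual reporter of beta-catenin signalling, had normalized counts of 274, 236 and 261 for the control, 124, 108 and 116 for Rbbp4Ins/Ins and 131, 139.9 and 137 for Rbbp4Ins/Del. The control libraries lay apart from the mutant ones, and the log2 fold change was -1.14 ± 0.10 (SE, adjusted p = 1.2e-12) in Rbbp4Ins/Ins and -0.92 ± 0.10 (SE, adjusted p = 1.3e-10) in Rbbp4Ins/Del. *Tcf7* (chr11:52252371-52283014, minus strand), the TCF factor that mostly activates targets, had normalized counts of 1494, 1599.6 and 1572 for the control, 749, 747 and 735 for Rbbp4Ins/Ins and 660.4, 623 and 639.8 for Rbbp4Ins/Del. It fell in both, with the Rbbp4Ins/Del libraries the lowest and a log2 fold change of -1.06 ± 0.0469 (SE, adjusted p = 6e-22) in Rbbp4Ins/Ins and -1.28 ± 0.0481 (SE, adjusted p = 2.5e-24) in Rbbp4Ins/Del.

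*Tcf7l1* (chr6:72626378-72789254, minus strand), the repressing TCF factor of ESCs, had normalized counts of 2664, 2787 and 2579 for the control, 2668, 2466 and 2404 for Rbbp4Ins/Ins and 2171, 2182 and 2110.4 for Rbbp4Ins/Del. The Rbbp4Ins/Ins libraries reached into the control range, while the Rbbp4Ins/Del libraries lay under it. Its log2 fold change was -0.09 ± 0.0378 (SE, adjusted p = 0.037) in Rbbp4Ins/Ins and -0.31 ± 0.0385 (SE, adjusted p = 3.5e-09) in Rbbp4Ins/Del, and it passes in Rbbp4Ins/Ins as well at a limit of 0.05 or without the first Rbbp4Ins/Ins library (adjusted p = 0.0069). *Tcf7l2* had normalized counts of 262, 270.3 and 252 for the control, 185, 193 and 205 for Rbbp4Ins/Ins and 192, 179 and 156 for Rbbp4Ins/Del and fell in both, with a log2 fold change of -0.43 ± 0.0919 (SE, adjusted p = 8.2e-05) in Rbbp4Ins/Ins and -0.57 ± 0.0937 (SE, adjusted p = 1.3e-06) in Rbbp4Ins/Del. *Lef1*, the fourth factor of this family and no member by symbol, had normalized counts of 785, 820.2 and 864 for the control, 859, 793 and 837 for Rbbp4Ins/Ins and 1121, 948 and 1154 for Rbbp4Ins/Del, with a log2 fold change of 0.02 ± 0.0598 (SE, adjusted p = 0.81) in Rbbp4Ins/Ins and 0.38 ± 0.0580 (SE, adjusted p = 3e-07) in Rbbp4Ins/Del.

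For context, 73 other genes of the pathway were counted in 6 lists, of which 66 genes could be tested. The lists were chosen with earlier results of these data known, so their counts are no independent evidence. Over these 66, 27 fell and 13 rose in Rbbp4Ins/Ins, and 30 fell and 14 rose in Rbbp4Ins/Del, with median log2 fold changes of -0.15 and -0.15. Among all tested genes, 29.4% and 31.9% fell, and 29.0% and 30.6% rose.

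Among the 9 tested genes listed as beta-catenin targets, 7 fell and 2 did not pass in Rbbp4Ins/Ins. In Rbbp4Ins/Del, 6 fell and 3 did not pass. Beside this, 29.4% and 31.9% of all tested genes fell in the 2 comparisons. For *Sp5*, *T*, *Cdx2* and *Zfp703* too few mutant libraries passed the filter on low counts, so these could be tested only through the control libraries. The filter thus favoured a fall for them. The list does not hold every target, since *Axin2*, for example, was counted as a member. Its counts therefore do not stand for the targets of the pathway as a whole. *Sp5*, a zinc finger factor induced by Wnt in many tissues, had normalized counts of 67.5, 77.5 and 60.6 for the control, 1.71, 2.26 and 3.17 for Rbbp4Ins/Ins and 2.04, 1.80 and 2.31 for Rbbp4Ins/Del. Each mutant library held 3 reads or fewer, so over the summed reads it was 29.4-fold lower than in the control, with a 95% interval from 14.0 to 74.0 in Rbbp4Ins/Ins, and 33.7-fold lower than in the control, with a 95% interval from 15.2 to 92.9 in Rbbp4Ins/Del. *T* (Brachyury), the mesoderm factor, had normalized counts of 35.9, 54.5 and 43.3 for the control, 2.57, 3.39 and 1.06 for Rbbp4Ins/Ins and 0, 0.902 and 0 for Rbbp4Ins/Del. It was 18.8-fold lower than in the control, with a 95% interval from 8.90 to 47.8 in Rbbp4Ins/Ins, and in Rbbp4Ins/Del, with 1 read in all, 129.7-fold lower than in the control, with a 95% interval from 22.9 to 5162. That read lies in the second library. The windows printed above belong to these genes.

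*Sp8*, a relative of *Sp5*, had normalized counts of 84.6, 80.7 and 101 for the control, 11.1, 11.3 and 11.6 for Rbbp4Ins/Ins and 7.16, 8.12 and 18.5 for Rbbp4Ins/Del. *Sp8* had log2 fold changes of -2.95 ± 0.24 (SE, adjusted p = 1.8e-13) in Rbbp4Ins/Ins and -3.01 ± 0.25 (SE, adjusted p = 1.2e-13) in Rbbp4Ins/Del. *Cdx2*, a factor of the trophectoderm and the posterior body, had normalized counts of 23.1, 28.3 and 39.0 for the control, 1.71, 3.39 and 2.11 for Rbbp4Ins/Ins and 1.02, 1.80 and 4.63 for Rbbp4Ins/Del. Over the summed reads it was 12.7-fold lower than in the control, with a 95% interval from 5.90 to 32.4 in Rbbp4Ins/Ins, and the log2 fold change in Rbbp4Ins/Del was -3.58 ± 0.46 (SE, adjusted p = 7.7e-09). Without the third Rbbp4Ins/Del library, which held 4 of its 7 reads there, the latter becomes -4.25. *Zfp703* had normalized counts of 35.1, 31.4 and 28.1 for the control, 9.41, 9.03 and 13.7 for Rbbp4Ins/Ins and 14.3, 2.71 and 10.4 for Rbbp4Ins/Del. Log2 fold changes for *Zfp703* were -1.56 ± 0.33 (SE, adjusted p = 8.4e-05) in Rbbp4Ins/Ins and -1.83 ± 0.35 (SE, adjusted p = 1.4e-05) in Rbbp4Ins/Del. The cell cycle gene *Ccnd1* also fell, with log2 fold changes of -0.45 in Rbbp4Ins/Ins and -0.44 in Rbbp4Ins/Del, whereas *Myc* passed as lower in Rbbp4Ins/Ins (-0.53 ± 0.0513 (SE, adjusted p = 1.3e-11)) and not in Rbbp4Ins/Del (-0.10 ± 0.0493 (SE, adjusted p = 0.08)). *Cdx1* and *Mixl1* did not pass in either mutant.

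In the core of the pathway, genes moved in both directions, as they did among all tested genes. Of all tested genes, 29.4% fell and 29.0% rose in Rbbp4Ins/Ins, and 31.9% fell and 30.6% rose in Rbbp4Ins/Del. For the 12 tested genes of the destruction complex and beta-catenin, 5 rose, 3 fell and 4 did not pass in Rbbp4Ins/Ins, and 5 rose, 4 fell and 3 did not pass in Rbbp4Ins/Del. *Ctnnb1*, which encodes beta-catenin, had normalized counts of 17895, 17272 and 17407 for the control, 18121, 18399 and 19009 for Rbbp4Ins/Ins and 19470.2, 19901 and 19384 for Rbbp4Ins/Del, and its log2 fold change was 0.08 ± 0.0263 (SE, adjusted p = 0.0086) in Rbbp4Ins/Ins and 0.16 ± 0.0263 (SE, adjusted p = 1.3e-06) in Rbbp4Ins/Del. The call in Rbbp4Ins/Ins is lost with DESeq2's size factors (adjusted p = 0.011), with scaling by total counts (adjusted p = 0.024), in a fit of the 6 libraries compared (adjusted p = 0.015) and without control replicate 2 or 3, Rbbp4Ins/Ins replicate 2 or 3 or Rbbp4Ins/Del replicate 2 (adjusted p from just over 0.01 to 0.07), and 14.6% of the exonic length lies opposite the gene *Ulk4*. The largest change in this list was a rise of the kinase gene *Csnk1e*, with log2 fold changes of 0.90 in Rbbp4Ins/Ins and 0.84 in Rbbp4Ins/Del. The median absolute log2 fold change of the list was 0.18 in Rbbp4Ins/Ins and 0.22 in Rbbp4Ins/Del, beside 0.30 and 0.34 over all tested genes. Of the 8 Dishevelled genes and inhibitors, 1 rose, 2 fell and 5 did not pass in Rbbp4Ins/Ins, and 1 rose, 4 fell and 3 did not pass in Rbbp4Ins/Del. The gene that rose was *Dact2*, which encodes a Dishevelled-binding protein, with normalized counts of 392, 328 and 357 for the control, 749, 649 and 636 for Rbbp4Ins/Ins and 647, 690.3 and 646 for Rbbp4Ins/Del. *Dact2* changed by 0.92 ± 0.0702 (SE, adjusted p = 1.7e-14) in Rbbp4Ins/Ins and 0.88 ± 0.0706 (SE, adjusted p = 6.1e-14) in Rbbp4Ins/Del on the log2 scale. *Csnk1e* and *Dact2* are named here after their values were seen. Of the 11 nuclear cofactors, 1 rose, 4 fell and 6 did not pass in Rbbp4Ins/Ins, and 2 rose, 5 fell and 4 did not pass in Rbbp4Ins/Del, with *Pygo1*, a plant homeodomain cofactor of beta-catenin, the furthest, with normalized counts of 76.9, 96.4 and 71.5 for the control, 35.9, 18.1 and 32.8 for Rbbp4Ins/Ins and 26.6, 28.0 and 26.6 for Rbbp4Ins/Del. On the log2 scale *Pygo1* changed by -1.46 ± 0.20 (SE, adjusted p = 5.4e-08) in Rbbp4Ins/Ins and -1.58 ± 0.21 (SE, adjusted p = 1.3e-08) in Rbbp4Ins/Del.

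Among the 12 tested genes of ligand release and receptor turnover, 4 rose, 3 fell and 5 did not pass in Rbbp4Ins/Ins, and 4 rose, 3 fell and 5 did not pass in Rbbp4Ins/Del. The shares of all tested genes were 29.0% and 30.6% for a rise and 29.4% and 31.9% for a fall. Apart from *Wls*, *Rnf43* and *Rspo4*, the genes of this list past 2-fold in either mutant were *Apcdd1*, *Draxin* and *Kremen2*. *Apcdd1*, a membrane-bound Wnt inhibitor, had normalized counts of 81.2, 95.3 and 89.9 for the control, 180.5, 168 and 164 for Rbbp4Ins/Ins and 190.1, 210.2 and 239.5 for Rbbp4Ins/Del. *Apcdd1* had log2 fold changes of 0.95 ± 0.12 (SE, adjusted p = 6e-09) in Rbbp4Ins/Ins and 1.26 ± 0.12 (SE, adjusted p = 1.9e-12) in Rbbp4Ins/Del. *Draxin*, a guidance protein that also antagonizes Wnt, had normalized counts of 39.3, 16.8 and 24.9 for the control, 65.0, 72.2 and 56.0 for Rbbp4Ins/Ins and 77.7, 77.6 and 56.7 for Rbbp4Ins/Del. On the log2 scale *Draxin* rose by 1.21 ± 0.22 (SE, adjusted p = 1e-05) in Rbbp4Ins/Ins and 1.36 ± 0.22 (SE, adjusted p = 9e-07) in Rbbp4Ins/Del. *Kremen2*, a Dickkopf receptor, passed as lower in Rbbp4Ins/Del with -1.33 ± 0.40 (SE, adjusted p = 0.0037) and not in Rbbp4Ins/Ins with -0.80 ± 0.37 (SE, adjusted p = 0.054), and the call in Rbbp4Ins/Del is lost with DESeq2 (adjusted p = 0.033) and without the second control library or any Rbbp4Ins/Del library (adjusted p from just over 0.01 to 0.025).

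Of the 14 tested genes of planar cell polarity and alternative receptors, 2 rose, 8 fell and 4 did not pass in Rbbp4Ins/Ins, and 2 rose, 8 fell and 4 did not pass in Rbbp4Ins/Del. Beside this, 29.0% and 30.6% of all tested genes rose, and 29.4% and 31.9% fell. *Ror1*, a receptor tyrosine kinase for Wnt5a, had normalized counts of 203, 198 and 173 for the control, 12.0, 18.1 and 9.51 for Rbbp4Ins/Ins and 8.18, 5.41 and 10.4 for Rbbp4Ins/Del. It was low in every mutant library, with a log2 fold change of -3.87 ± 0.19 (SE, adjusted p = 1.9e-20) in Rbbp4Ins/Ins and -4.60 ± 0.21 (SE, adjusted p = 1.9e-21) in Rbbp4Ins/Del, while its relative *Ror2* had -0.06 in Rbbp4Ins/Ins and 0.17 in Rbbp4Ins/Del and did not pass. *Celsr3*, a cadherin of axon guidance, had normalized counts of 563, 569.9 and 599.8 for the control, 189.9, 194 and 192 for Rbbp4Ins/Ins and 84.8, 97.4 and 120.3 for Rbbp4Ins/Del, with 3 separate levels and a log2 fold change of -1.59 ± 0.0810 (SE, adjusted p = 6.7e-20) in Rbbp4Ins/Ins and -2.52 ± 0.0920 (SE, adjusted p = 9.1e-25) in Rbbp4Ins/Del. *Prickle1* and *Prickle2*, cytoplasmic polarity proteins, fell too. *Prickle1* had normalized counts of 175, 183 and 178 for the control, 61.6, 59.8 and 58.1 for Rbbp4Ins/Ins and 66.4, 74.0 and 68.3 for Rbbp4Ins/Del with log2 fold changes of -1.57 ± 0.13 (SE, adjusted p = 7.1e-14) in Rbbp4Ins/Ins and -1.35 ± 0.12 (SE, adjusted p = 1.7e-12) in Rbbp4Ins/Del, and *Prickle2* had normalized counts of 63.3, 56.6 and 67.1 for the control, 34.2, 28.2 and 28.5 for Rbbp4Ins/Ins and 35.8, 39.7 and 38.2 for Rbbp4Ins/Del with -1.02 ± 0.19 (SE, adjusted p = 1.5e-05) in Rbbp4Ins/Ins and -0.71 ± 0.19 (SE, adjusted p = 8.6e-04) in Rbbp4Ins/Del.

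Rbbp4Ins/Del was also compared with Rbbp4Ins/Ins, to ask where the mutants differ. Of the 33 tested members 1 was higher, *Notum*, and 5 were lower in Rbbp4Ins/Del, *Fzd7*, *Lrp5*, *Tcf7*, *Tcf7l1* and *Wnt7b*, where 6.17% of all tested genes were higher and 4.64% lower. The log2 differences of Rbbp4Ins/Del from Rbbp4Ins/Ins were 0.49 ± 0.0664 (SE, adjusted p = 4.9e-07) for *Notum*, -0.58 ± 0.14 (SE, adjusted p = 0.0019) for *Wnt7b* and -0.30 ± 0.0348 (SE, adjusted p = 2.8e-08) for *Fzd7*. They were -0.22 ± 0.0387 (SE, adjusted p = 4.2e-05) for *Tcf7l1*, -0.21 ± 0.0529 (SE, adjusted p = 0.003) for *Tcf7* and -0.17 ± 0.0458 (SE, adjusted p = 0.0068) for *Lrp5*. With DESeq2, *Tcf7*, *Lrp5* and *Wnt7b* no longer pass in this comparison (adjusted p = 0.013, 0.029 and 0.011). *Tcf7* is also lost without Rbbp4Ins/Ins replicate 1 or 2 or Rbbp4Ins/Del replicate 2 or 3 (adjusted p from 0.011 to 0.028). *Lrp5* is also lost with DESeq2's size factors (adjusted p = 0.011), without any Rbbp4Ins/Ins library and without Rbbp4Ins/Del replicate 2 or 3 (adjusted p from 0.012 to 0.06), and *Wnt7b* without Rbbp4Ins/Ins replicate 2 or 3 or Rbbp4Ins/Del replicate 1 or 2 (adjusted p from 0.011 to 0.021). Among the 66 other pathway genes, *Lef1*, *Tle4* and *Myc* were higher and *Celsr3* was lower in Rbbp4Ins/Del. *Rbbp4* RNA also differed between the mutants, with a log2 difference of 0.89 ± 0.0288 (SE, adjusted p = 4.1e-24), and its part in these differences was not tested.

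Genes of other cell types were counted because some of them express Wnt genes. For comparison, 29.4% of all tested genes fell and 29.0% rose in Rbbp4Ins/Ins, and 31.9% fell and 30.6% rose in Rbbp4Ins/Del. Of the 10 fibroblast markers, 6 were tested, and 5 fell and 1 (*Thy1*) rose in each mutant, with a summed level of 1215 to 1380 normalized counts in the control, 615 to 695 in Rbbp4Ins/Ins and 686 to 699 in Rbbp4Ins/Del. *Col1a1* had normalized counts of 272, 311 and 277 for the control, 19.7, 12.4 and 19.0 for Rbbp4Ins/Ins and 24.5, 24.4 and 24.3 for Rbbp4Ins/Del, while *Lum* and *Fap* stayed at or under 3 reads in every library. The 8 neural progenitor markers summed to 2572 to 2587, 433 to 474 and 406 to 445, where *Pax6* and *Nes* fell and *Neurog2* and *Olig2* were at or under 3 reads. The 8 trophectoderm markers summed to 4999 to 5466, 2717 to 2896 and 1844 to 1904. Of the 7 tested, 4 fell and 2 rose in Rbbp4Ins/Ins, and 6 fell and 1 rose in Rbbp4Ins/Del. *Krt8* and *Krt18* fell, with log2 fold changes of -2.69 in Rbbp4Ins/Ins and -3.00 in Rbbp4Ins/Del and of -2.45 in Rbbp4Ins/Ins and -2.98 in Rbbp4Ins/Del. *Tfap2c*, the gene with the most counts of the list in the mutants, rose in Rbbp4Ins/Ins (0.48) and fell in Rbbp4Ins/Del (-0.21). *Eomes* rose in both (0.74 in Rbbp4Ins/Ins and 0.49 in Rbbp4Ins/Del). The 8 primitive endoderm markers summed to 1405 to 1610, 1098 to 1214 and 1681 to 1803, with most of these counts from *Col4a1*. Among the 7 tested, 1 rose and 3 fell in Rbbp4Ins/Ins, and 5 rose and 2 fell in Rbbp4Ins/Del. *Sox7* rose in both (1.63 in Rbbp4Ins/Ins and 2.22 in Rbbp4Ins/Del), and *Gata4* and *Dab2* fell in both. The 8 mesendoderm markers summed to 260 to 292, 347 to 387 and 297 to 321, with *Mesp1* at or under 3 reads. *Eomes* is on the mesendoderm list too, and was the 1 gene of it that rose, while *T* fell and the other 3 tested did not pass. The fibroblast, neural and trophectoderm sums thus moved down with the Wnt ligands and *Wls*, and their part in those results was not tested.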

How the data were processed

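RNA was sequenced from 3 libraries each of control E14 ESCs, Rbbp4Ins/Ins ESCs, and Rbbp4Ins/Del ESCs, grouped by their genotype labels. Per the labels and the methods of the study, the authors isolated total RNA, made libraries with a Kapa mRNA HyperPrep kit, aligned reads to mm10 with STAR 2.7.3, and obtained gene counts from HTSeq. These deposited counts are whole numbers and were not normalized. The HTSeq annotation and strand setting are not given in the sources used here. The authors tested their counts with DESeq2 1.22.2.

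Counts were fitted with edgeR 4.0.16 in R 4.3.3 (filterByExpr, TMM, glmQLFit, and glmQLFTest) over all 9 libraries with 3 groups. P-values were adjusted over 14125 genes, with a limit of 0.01. For normalized counts, each library was rescaled to the mean effective size of all 9. Exonic lengths and positions come from GENCODE M21 (GRCm38). Intervals of low counts are exact conditional binomial intervals. Members past the limit and an absolute log2 fold change of 1 in either mutant, with *Axin2*, *Tcf7l1*, *Porcn*, and *Lrp6*, are given with each library's value, as are the listed pathway genes past the same limits and *Ctnnb1*. Other members were given as well. Members and lists were chosen with earlier results of these data known. Same-numbered libraries of different lines correlated by r of -0.03 to 0.056 in their deviations from the line means, so the numbers do not pair them. On simulated counts for 13887 genes, the fit recovered 176 of 192 changed genes for Rbbp4Ins/Ins with 2 false calls and 177 for Rbbp4Ins/Del with 0. The simulation used the spread estimated by the fit and changed few genes, each by at least 2-fold. In the data, 29.4% of the tested genes fell and 29.0% rose in Rbbp4Ins/Ins, many by less. The recovery therefore does not carry over to small changes.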

Additional observations from a re-analysis of the deposited data

Results flagged for a closer look

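By the test of Rbbp4Ins/Del against Rbbp4Ins/Ins, 6.17% of all tested genes were higher and 4.64% lower in Rbbp4Ins/Del. In the pathway, 10 genes differed by this test, 6 of the 33 tested members and 4 of the 66 other tested genes. Log2 differences below 0 mean lower in Rbbp4Ins/Del. Among the members these were *Notum* (0.49), *Fzd7* (-0.30), *Tcf7* (-0.21), *Tcf7l1* (-0.22), *Lrp5* (-0.17) and *Wnt7b* (-0.58). Against the control, *Notum* rose and *Fzd7*, *Tcf7* and *Lrp5* fell in both mutants, each further in Rbbp4Ins/Del, while *Tcf7l1* and *Wnt7b* passed in Rbbp4Ins/Del and not in Rbbp4Ins/Ins. Among the other pathway genes, *Lef1* (0.36), *Tle4*, a Groucho co-repressor (0.18), and *Myc* (0.43) were higher and *Celsr3* (-0.94) was lower in Rbbp4Ins/Del. With DESeq2, the differences of *Tcf7*, *Lrp5* and *Wnt7b* between the mutants no longer passed (adjusted p = 0.013, 0.029 and 0.011). Groups of 3 libraries were not searched for single libraries that stand apart.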

How the results depend on the processing

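Of the 116 log2 fold changes and differences examined, 97 kept their direction and their side of the threshold under every alternative other than the test against a 2-fold change, and most exceptions are named with the results. *Prickle2* in Rbbp4Ins/Del did not pass with DESeq2 (adjusted p = 0.013), and at a limit of 0.05 *Sfrp5* and *Dkk3* passed in Rbbp4Ins/Del. Tested against a 2-fold change, which counts only larger effects, 8 members were lower and 1 was higher in Rbbp4Ins/Ins, and 8 and 1 in Rbbp4Ins/Del, with 8 other pathway genes lower and 0 higher in Rbbp4Ins/Ins, 10 and 0 in Rbbp4Ins/Del, and 0 of either kind differing between the mutants. Between the mutants, 2 members were lower with DESeq2, 2 were higher with DESeq2's size factors and 2 at a limit of 0.05, at which 8 other pathway genes were higher and 6 lower, and 2 were lower in a fit of those 6 libraries alone. Leaving out 1 library gave 2 to 5 members and 1 to 2 other pathway genes lower in Rbbp4Ins/Del than in Rbbp4Ins/Ins. The sign changed for *Lrp6*, whose log2 fold changes lay near 0. In Rbbp4Ins/Del the value was 0.009 with DESeq2, 0.008 with its size factors, 0.003 with all genes of at least 1 read, 0.014 in the fit of 6 libraries, and -0.021 to 0.031 with 1 library left out, and in Rbbp4Ins/Ins -0.052 to 0.012. With 1 library left out, *Fzd4* ranged from -0.037 to 0.112 and *Lef1* from -0.018 to 0.062 in Rbbp4Ins/Ins. With a replicate block the counts of members were the same, 20 lower and 6 higher in Rbbp4Ins/Ins, 21 and 7 in Rbbp4Ins/Del, and 5 and 1 between the mutants, while *Ctnnb1* in Rbbp4Ins/Ins no longer passed (adjusted p = 0.012). The cause of these shifts was not tested. Genes near 10 reads, such as most ligands in the mutants, have wide errors at this depth.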
